A study of Mus musculus with 9 samples.

Results

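The thrombospondin genes Thbs1, Thbs2, Thbs3 and Thbs4 and the gene of cartilage oligomeric matrix protein, Comp, the remaining member of the same family, were followed in Scx-GFP-positive mouse forelimb cells. The 5 genes were taken by their symbols, with every probe set listed under them. That gave 8 probe sets with 1 symbol and a further one listed for both Pald1 and Thbs1, which makes 9 of the 45101 probe sets on the array. All 5 genes were among the 11575 genes tested, of 18193 genes with a probe set of their own.

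Forelimbs of embryos carrying the Scx-GFP reporter were collected after natural matings at E11.5, at E12.5 or at E14.5, where E stands for embryonic day, treated with trypsin and sorted for green fluorescence on either of 2 instruments. All 3 groups carry the same reporter, which follows scleraxis, the helix-loop-helix transcription factor of tendon progenitors, and reporter-negative cells were not analysed here. A stage was measured on 3 arrays, lettered A, B and C, on which amplified RNA was measured as 1 signal per probe set. Whether the samples within a stage are from separate litters is not given, so the p-values reflect only the spread between these samples, which may be technical.

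Thrombospondins are secreted, calcium-binding matrix proteins that join into trimers (thrombospondins 1 and 2) or pentamers (thrombospondins 3 and 4 and COMP). The trimeric proteins carry type 1 repeats, through which they bind receptors such as CD36 and, for thrombospondin 1, activate latent TGF-beta, while the pentameric proteins lack these repeats. In tendon, thrombospondin 2, thrombospondin 4 and COMP are known for their part in the assembly of collagen fibrils, and thrombospondin 4 for muscle attachment in zebrafish.

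All 5 genes were higher at E14.5 than at E11.5. Thbs2 and Thbs4 changed most, by log2 4.61 ± 0.22 and 4.55 ± 0.31 (SE), and ranked 30 and 35 from the highest among the 11575 genes tested. Comp changed by 3.60 ± 0.91, Thbs1 by 1.86 ± 0.22 and Thbs3 by 1.77 ± 0.17. The test called 22.9% of all genes higher in this comparison, against 5 of 5 here, and the median change of all genes was 0.00345. At E12.5 against E11.5 the test called 1 of 5 members higher, Thbs2, where 3.11% of all genes were called higher. Between E14.5 and E12.5, 4 of 5 members were called higher, all but Comp, where 12.6% of all genes were. Calls are adjusted p-values under 0.05 in limma, a linear model that draws each gene's variance toward a value common to all genes. Adjustment was by the Benjamini-Hochberg method over all genes tested. Each gene is represented by its brightest probe set over the 9 arrays. Those with the suffix _x_at, whose probes can bind related sequences, were used only where a gene had no other. The filter for testing asked for at least 3 arrays above 90.6, the median of all signals, and signals under 22.7 were raised to that floor. Comp and Thbs4 met the filter through their later stages. The counts of members set beside shares of all genes, here and below, are therefore descriptions.

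E14.5 arrays lay above every E11.5 array in 5 of 5 members, against 27.3% of all genes, and above every E12.5 array in 4 of 5, against 20.6%. The same held for E12.5 over E11.5 in 4 of 5, all but Thbs4, against 15.8%.

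**Figure D1:**
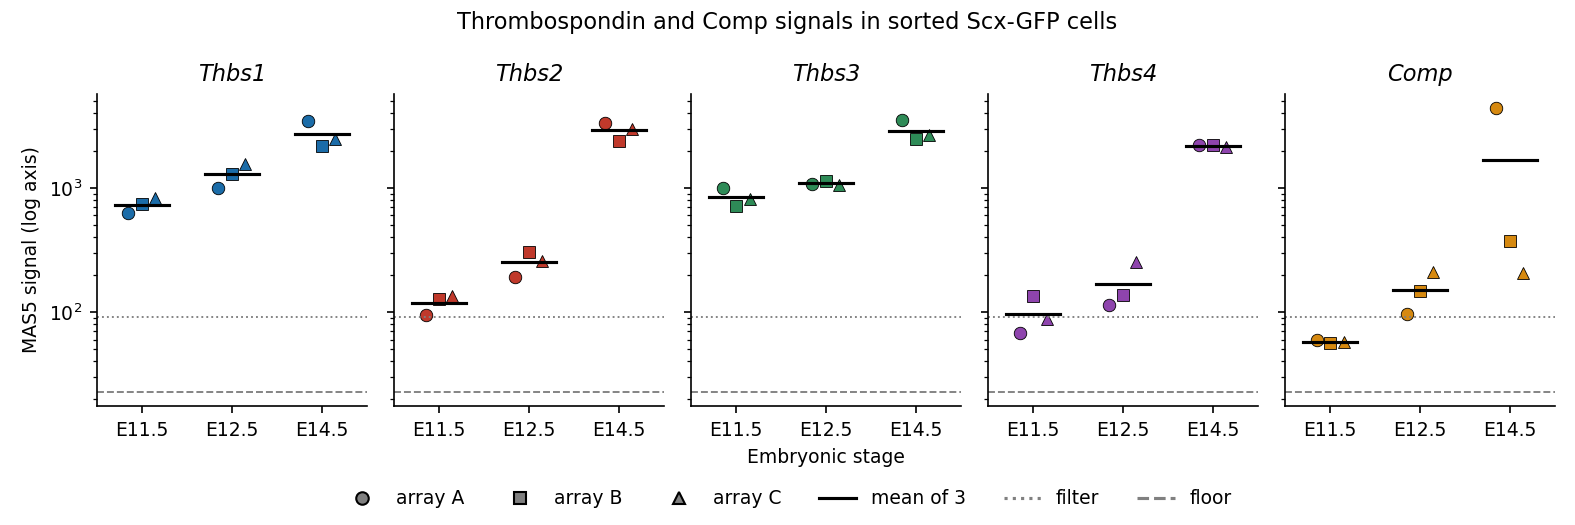
Signal of each gene's chosen probe set (log axis) in arrays A, B and C of the 3 stages, with the mean of 3 as a bar; the dotted line is the filter at 90.6 and the dashed line the floor at 22.7. Thbs4 lies between 2118 and 2227 at E14.5, while Comp spreads between 205 and 4430 there.

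The bases just before the gene's start are shown for the members that RefSeq's promoter table holds (mouse build GRCm38.p6), which are Thbs2 and Thbs4, the genes with the largest changes, and Thbs3. Each line gives the 250 bases before the start, with capitals marking the E-box, the letters CANNTG that helix-loop-helix factors such as scleraxis can bind.
Thbs2, chr17:14694263-14694512, minus strand: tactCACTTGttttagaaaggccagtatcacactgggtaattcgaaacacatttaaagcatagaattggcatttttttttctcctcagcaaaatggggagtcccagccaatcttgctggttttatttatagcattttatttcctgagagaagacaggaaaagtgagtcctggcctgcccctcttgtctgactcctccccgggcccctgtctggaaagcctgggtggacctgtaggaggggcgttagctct
Thbs3, chr3:89214930-89215179, plus strand: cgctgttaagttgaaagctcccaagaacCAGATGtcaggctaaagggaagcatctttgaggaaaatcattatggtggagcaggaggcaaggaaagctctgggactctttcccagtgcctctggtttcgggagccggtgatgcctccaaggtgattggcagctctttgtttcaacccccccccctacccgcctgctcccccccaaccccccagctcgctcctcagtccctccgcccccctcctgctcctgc
Thbs4, chr13:92794819-92795068, minus strand: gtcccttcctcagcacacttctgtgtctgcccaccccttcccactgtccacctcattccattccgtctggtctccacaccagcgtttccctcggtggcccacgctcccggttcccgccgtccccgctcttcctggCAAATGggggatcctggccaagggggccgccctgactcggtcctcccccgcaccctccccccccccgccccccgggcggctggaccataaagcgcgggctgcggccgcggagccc
Each of the 3 sequences holds 1 E-box, and 66.2% of the 32851 promoters of the same length hold at least 1. It starts 246 bases before the gene in Thbs2, 222 in Thbs3 and 115 in Thbs4. The GC box GGGCGG, searched on both strands, was found 3 times before Thbs4 and 1 time before Thbs3. At least 3 copies are present in 8.47% of all promoters and at least 1 in 32.7%. The letters TATAAA were found 1 time before Thbs2, on the reverse strand, and in 12.4% of all promoters. Neither the AP-1 letters TGANTCA nor the EGR letters GCGNGGGCG, which can share bases with a GC box, were in these windows; 6.75% and 4.70% of all promoters hold them. None of the matches overlapped another.

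The arrays had been scaled by the authors to a common trimmed mean of 500 and had median signals between 68.7 and 118. Arrays of 1 stage correlated at r between 0.950 and 0.982 across genes. The tendon label was checked at E14.5 with 8 marker genes, all above the filter there. They were Scx, Tnmd, Mkx, Fmod, Kera, Chodl, Col1a1 and Col14a1, and whether each marks tendon alone was not tested. Tenomodulin (Tnmd), a membrane protein of maturing tendon cells, had signals of 9398, 6005 and 8797 at E14.5 against 42.0, 14.4 and 7.80 at E11.5. Its signals in E11.5 B and E11.5 C lay under the floor. In Tnmd and Chodl no E11.5 array exceeded the filter, so both were tested through their later signals and their folds are imprecise. Scx itself was lower at E14.5, at 9811, 8692 and 14953 against 14811, 21375 and 21828 (log2 -0.81, adjusted p = 0.0164). Of the markers of other cells, the summed signal of 14 cartilage genes stood apart in E14.5 A, at 102758, against 23260 in E14.5 B and 11041 in E14.5 C. It was 16554 to 20420 at E11.5 and 28643 to 34871 at E12.5. The 11 skeletal muscle genes summed to 8897 to 12318 at E14.5 against 3718 to 6144 at E11.5, with no overlap. Of these genes 6 were called higher and none lower (all genes: 22.9% higher, 17.7% lower). Their part in the members' changes was not tested. An array measures a mixture of sorted cells, so fewer cells of a type and less RNA per cell cannot be told apart in any value below.

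Thbs1 encodes thrombospondin 1, an inhibitor of blood vessel growth and an activator of latent TGF-beta. Its probe set 1460302_at gave signals of 626, 743 and 829 at E11.5, 1007, 1304 and 1566 at E12.5, and 3451, 2177 and 2472 at E14.5, for arrays A, B and C. The 3 stages did not overlap, and each later stage lay above the one before it, as in Thbs2 and Thbs3 and in 8.12% of all tested genes. E14.5 exceeded E11.5 by log2 1.86 ± 0.22 (95% interval 1.37 to 2.36, adjusted p = 0.000193), with means of 2700 ± 667 against 733 ± 102 (SD, n = 3 each). The step between E14.5 and E12.5 was 1.06 ± 0.22 (adjusted p = 0.00919), and that between E12.5 and E11.5 was 0.81 ± 0.22, which did not pass the test (adjusted p = 0.0907). After centring each array on its median the E14.5 and E12.5 stages differed by 0.94 (adjusted p = 0.0711), and without the letter A arrays by 0.70 (adjusted p = 0.0555), so that call was lost under both.

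Both other Thbs1 probe sets had their highest signals at E14.5. Probe set 1450377_at had 159, 176 and 312 at E11.5, 270, 387 and 331 at E12.5, and 664, 445 and 602 at E14.5. Its E12.5 and E11.5 arrays overlapped, since E11.5 C lay above E12.5 A, while E14.5 stood apart from both. In the fit over 20885 probe sets it was higher at E14.5 than at E11.5 by log2 1.45 ± 0.28 (adjusted p = 0.00468), where 17.3% of probe sets were called higher. Its difference between E14.5 and E12.5, 0.79 ± 0.28, did not pass in that fit (adjusted p = 0.0960). The chosen probe set 1460302_at did pass there (1.06 ± 0.23, adjusted p = 0.0170). The probe set 1421811_at, listed for both Pald1 and Thbs1, had 2533, 3170 and 3379 at E11.5, 4041, 4816 and 4047 at E12.5, and 10026, 8271 and 7705 at E14.5. It followed the chosen Thbs1 probe set at r = 0.966 over the 9 arrays, and which of its 2 listed genes it reports cannot be told from the values.

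Platelets store thrombospondin 1, endothelium and macrophages can make it, and Thbs1 can respond quickly to stimulation, so the markers of those cells and the immediate early genes are given beside it. The 8 platelet and megakaryocyte genes summed to 709 to 819 at E14.5, 415 to 837 at E12.5 and 355 to 629 at E11.5, and 3 of the 8 passed the filter. Among them Gp9, a platelet receptor subunit, stayed between 2.61 and 23.1 in all 9 arrays, while the platelet chemokine gene Pf4 had 155 to 253 at E14.5 against 37.9 to 63.9 at E11.5. Endothelial genes, of which 4 of 8 passed the filter, summed to 1107 to 1480 at E14.5 against 294 to 597 at E11.5. Those 4 were all called higher (all genes: 22.9%), but Cdh5, Tek and Emcn exceeded the filter in no E11.5 array. Tek had 320 to 735 at E14.5 against 46.9 to 55.6 at E11.5. Of the genes that did not pass, Pecam1 had 13.7 to 72.3 against 11.2 to 71.7 and Cldn5 43.9 to 82.5 against 52.7 to 64.3. Macrophage genes, of which 3 of 8 passed, summed to 603 to 887 at E14.5 against 321 to 393 at E11.5. The 13 immediate early genes, such as Fos and Egr1, summed to 44952, 10898 and 15744 at E11.5, 57761, 43942 and 24567 at E12.5, and 107094, 67813 and 50593 at E14.5. The median of their sum rose over the stages (15744, 43942 and 67813), as did the Thbs1 signals. Within a stage the sum was highest in array A each time. Thbs1 was lowest in array A at E11.5 and E12.5 and highest there at E14.5. The part of any of these in the Thbs1 change was not tested.

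**Figure D2:**
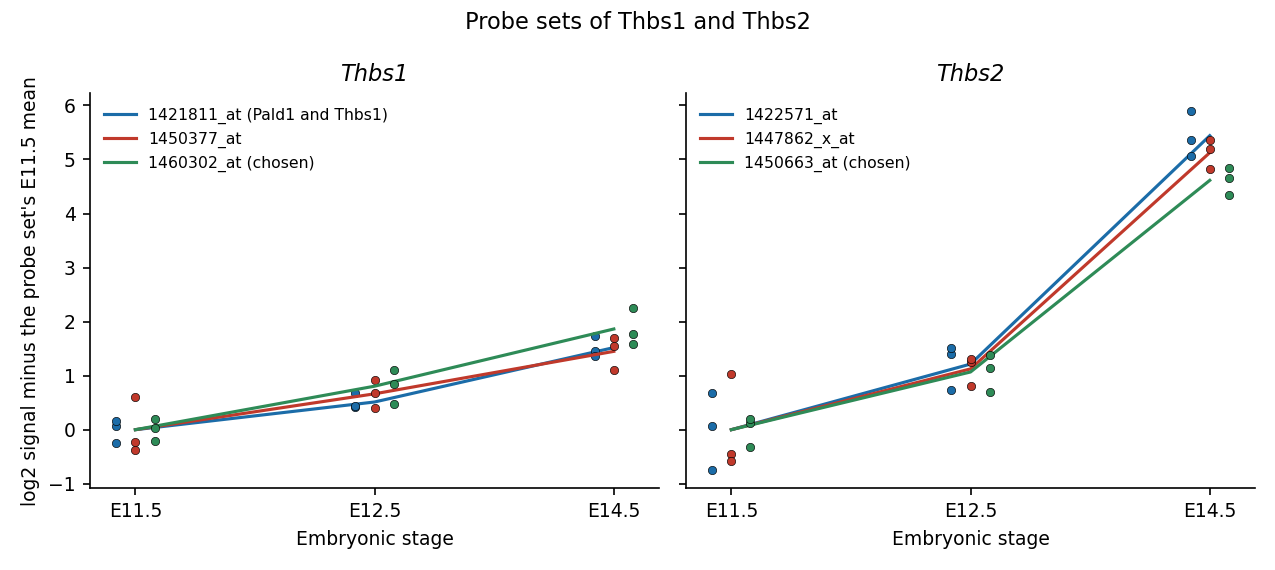
log2 signal of each Thbs1 (left) and Thbs2 (right) probe set minus its own E11.5 mean, with points for single arrays and lines through stage means. The Thbs1 probe sets end between 1.45 and 1.86 at E14.5 and those of Thbs2 between 4.61 and 5.44.

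Thbs2 encodes thrombospondin 2, whose loss in mice leaves collagen fibrils of skin and tendon irregular. Probe set 1450663_at had signals of 94.4, 128 and 135 at E11.5, 190, 305 and 259 at E12.5, and 3358, 2397 and 2977 at E14.5. The stages did not overlap, and the E14.5 arrays lay far above both others. E14.5 exceeded E11.5 by log2 4.61 ± 0.22 (95% interval 4.12 to 5.11, adjusted p = 1.28e-06), with means of 2911 ± 484 against 119 ± 21.8 (SD, n = 3 each). E14.5 also exceeded E12.5, whose mean was 252 ± 58.2, by 3.55 ± 0.22 (adjusted p = 1.94e-05). The earlier step, E12.5 against E11.5, was 1.07 ± 0.22 (adjusted p = 0.0335).

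That early call of Thbs2 stood close to the threshold. It was lost on leaving out E11.5 A (0.91, adjusted p = 0.0986), E11.5 B (1.13, 0.0757), E12.5 B (0.91, 0.130), E12.5 C (1.03, 0.128) or E14.5 C (1.07, 0.0521). The other Thbs2 probe sets also had their highest signals at E14.5. Probe set 1422571_at had 31.5, 55.3 and 84.3 at E11.5, 87.5, 139 and 151 at E12.5, and 3129, 1768 and 2178 at E14.5. Probe set 1447862_x_at, whose suffix marks probes that can bind related sequences, had 51.1, 46.7 and 142 at E11.5, 122, 166 and 173 at E12.5, and 2562, 2870 and 1962 at E14.5. Their changes between E14.5 and E11.5 were log2 5.44 ± 0.38 (adjusted p = 2.44e-05) and 5.13 ± 0.39 (adjusted p = 3.96e-05) in the fit over probe sets. At E11.5 the signal exceeded the filter of 90.6 in no array of 1422571_at and in 1 of 3 of 1447862_x_at, so these folds are imprecise. At the earlier step neither passed in that fit (1.21, adjusted p = 0.200, and 1.13, adjusted p = 0.263), nor did 1450663_at there (1.07, adjusted p = 0.0658), where 1.20% of probe sets were called higher.

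Thbs3 encodes thrombospondin 3, a pentameric protein whose loss in mice alters the timing of skeletal growth. Its only probe set, 1416623_at, had signals of 999.8, 714 and 814 at E11.5, 1071, 1140 and 1047 at E12.5, and 3520, 2466 and 2668 at E14.5. The E12.5 arrays lay just above those of E11.5, and the E14.5 arrays well above both. E14.5 exceeded E11.5 by log2 1.77 ± 0.17 (95% interval 1.38 to 2.16, adjusted p = 6.47e-05), with means of 2885 ± 560 against 843 ± 145 (SD, n = 3 each). Against E12.5 (mean 1086 ± 48.4) the difference was 1.39 ± 0.17 (adjusted p = 0.000703). The difference of 0.38 ± 0.17 between E12.5 and E11.5 did not pass the test (adjusted p = 0.329), although the arrays did not overlap.

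Thbs4 encodes thrombospondin 4, a matrix protein of tendon and of muscle attachments. Probe set 1449388_at had signals of 68.0, 135 and 88.0 at E11.5, 114, 138 and 252 at E12.5, and 2227, 2223 and 2118 at E14.5. The earlier stages overlapped, and the E14.5 arrays were close to each other and stood apart. E14.5 averaged 2189 ± 62.1 against 97.1 ± 34.6 at E11.5 and 168 ± 73.7 at E12.5 (SD, n = 3 each). The change was log2 4.55 ± 0.31 against E11.5 (95% interval 3.85 to 5.25, adjusted p = 7.99e-06) and 3.79 ± 0.31 against E12.5 (adjusted p = 7.71e-05), which ranked 21 of the genes tested. E12.5 and E11.5 differed by 0.76 ± 0.31 (adjusted p = 0.265). At E11.5 the signal exceeded the filter of 90.6 in 1 of 3 arrays, so that the gene entered the test through the later stages.

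Comp encodes a pentameric glycoprotein of cartilage and tendon that binds collagens and matrilins, and mutations in it cause pseudoachondroplasia in people. Probe set 1419527_at had signals of 59.5, 56.3 and 56.8 at E11.5, 96.9, 148 and 208 at E12.5, and 4430, 376 and 205 at E14.5. No E11.5 array reached the filter of 90.6, so Comp was tested only because of its later signals, and no detection calls were used here. The E14.5 arrays differed among themselves by 21.6-fold, and E14.5 C fell just below E12.5 C. E14.5 averaged 1670 ± 2391 against 57.5 ± 1.70 at E11.5 and 151 ± 55.6 at E12.5 (SD, n = 3 each). The change against E11.5 was log2 3.60 ± 0.91 (95% interval 1.56 to 5.65, adjusted p = 0.0114), and 2.27 without E14.5 A. Against E12.5 it was 2.28 ± 0.91 (adjusted p = 0.103), 0.95 without E14.5 A and 3.16 without E14.5 C (adjusted p = 0.0383). E12.5 and E11.5 differed by 1.33 ± 0.91 (adjusted p = 0.536), with no overlap of their arrays, and the difference was called without E14.5 A (1.33, adjusted p = 0.0480), which enters through the shared spread.

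The order of the E14.5 arrays in Comp was also that of the cartilage genes. All 14 cartilage genes were highest in E14.5 A, and 13 of 14 fell in the order A, B, C, with a median ratio of A to C of 10.7 (range 4.19 to 182). Acan, the core protein of cartilage proteoglycan, had 5409, 554 and 185, and the cartilage matrilin gene Matn1 had 6529, 613 and 114. Type II collagen (Col2a1) had 21311, 5150 and 3538. Among the 8 tendon genes 4 were highest in E14.5 A, none followed the order A, B, C, and the median ratio of A to C was 0.882. The other 4 members were also highest in E14.5 A, with ratios of A to C of 1.40 in Thbs1, 1.13 in Thbs2, 1.32 in Thbs3 and 1.05 in Thbs4, and Thbs4 also followed the order A, B, C. The order was not limited to cartilage genes. At E14.5 the immediate early genes summed to 107094, 67813 and 50593 in arrays A, B and C. The sums of the skeletal muscle genes (12318, 10502 and 8897) and of the platelet and megakaryocyte genes (819, 803 and 709) fell in that order too. Those of the endothelial and macrophage genes did not. The part of any of these lists in the Comp values was not tested.

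**Figure D3:**
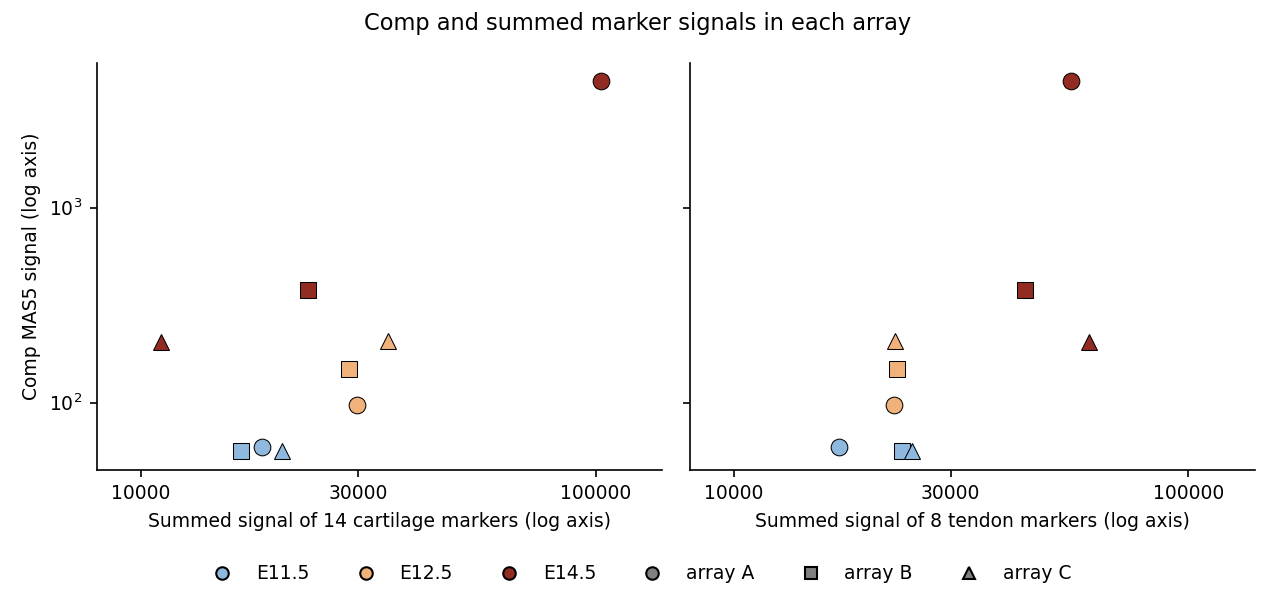
Comp signal against the summed signal of 14 cartilage genes (left) and 8 tendon genes (right) in each of the 9 arrays, all axes logarithmic. E14.5 A has the highest Comp signal (4430) and the highest cartilage sum (102758), while the tendon sums of E14.5 range between 43775 and 60423. At E11.5 Scx alone gives 14811, 21375 and 21828 of tendon sums of 17038, 23501 and 24647 (arrays A, B and C). In E11.5 A Col9a1 and Col2a1 give 8222 and 5041 of the cartilage sum of 18487.

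The stages were then compared within each gene as a course. limma's F-test for any difference among stages called 5 of 5 members, with adjusted p-values between 4.08e-06 for Thbs2 and 0.0317 for Comp, where 33.7% of all genes were called. Of the log2 change between E14.5 and E11.5, the first interval, of 1 day, held 43.2% in Thbs1, 36.8% in Comp, 23.1% in Thbs2, 21.4% in Thbs3 and 16.8% in Thbs4. The second interval, of 2 days, exceeded the first by log2 3.02 ± 0.54 in Thbs4 (adjusted p = 0.0439) and by 2.48 ± 0.38 in Thbs2 (adjusted p = 0.0220), so 2 of 5 members were called, where 0.631% of all genes were called higher. The differences of 1.01 in Thbs3 (adjusted p = 0.212), 0.95 in Comp (0.864) and 0.25 in Thbs1 (0.853) did not pass. These compare changes and not rates per day, since the intervals differ in length.

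Both interval calls depended on single arrays. The Thbs4 call did not survive leaving out either of arrays B and C of E11.5, either of arrays A and B of E12.5, or any 1 of the E14.5 arrays, with differences between 2.55 and 3.07 and adjusted p-values up to 0.176. The Thbs2 call did not survive leaving out array B of E11.5, array A or C of E12.5, or array C of E14.5, with differences between 2.10 and 2.55 and adjusted p-values up to 0.0944.

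**Figure D4:**
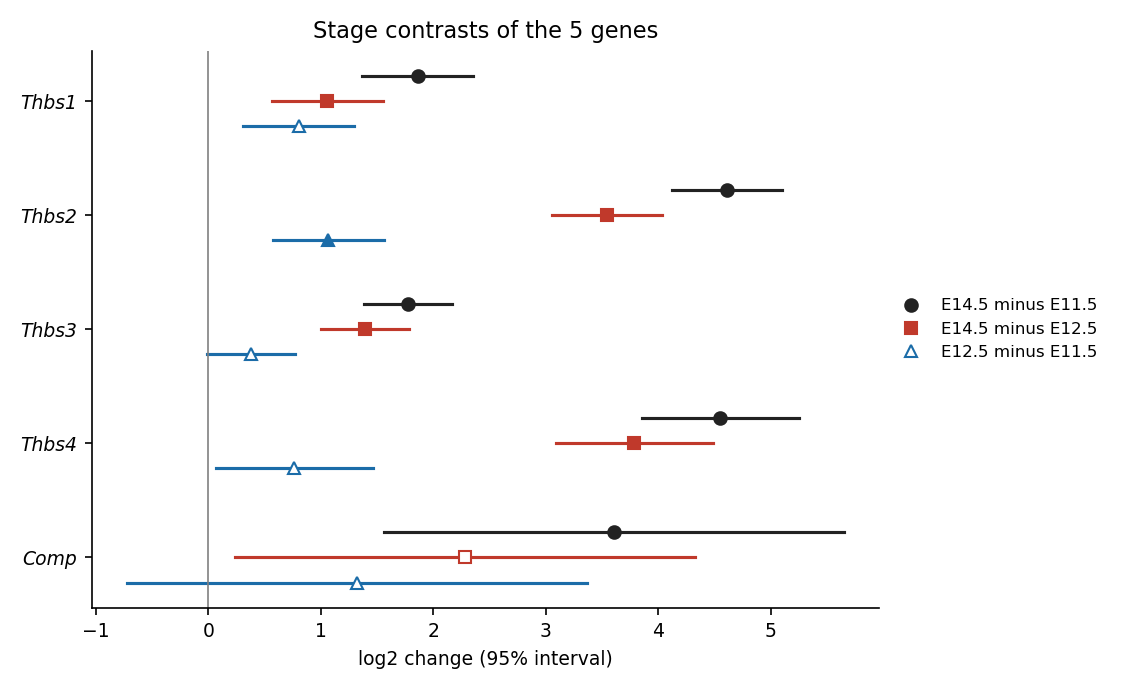
log2 change of each gene between stages with its 95% interval, for E14.5 minus E11.5, E14.5 minus E12.5 and E12.5 minus E11.5; filled symbols passed the test at an adjusted p under 0.05. Thbs2 and Thbs4 lie above 4 for E14.5 minus E11.5, and the Comp interval runs between 1.56 and 5.65.

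The changes between E14.5 and E11.5 were also set against each other within the family, as 10 pairs tested on the log2 ratio of both genes in each array. The ratio of Thbs2 to Thbs1 was log2 2.75 ± 0.10 higher at E14.5, and that of Thbs2 to Thbs3 was 2.84 ± 0.30 higher (SE). The ratios of Thbs4 to Thbs1 and of Thbs4 to Thbs3 were 2.69 ± 0.32 and 2.78 ± 0.45 higher. In these 4 pairs the ratios of the 2 stages did not overlap, and the exact two-sided permutation test gave p = 0.1, the smallest that 3 against 3 arrays allow, and 0.25 after adjustment over the 10 pairs. The changes of Thbs2 and Thbs4 differed by 0.06 ± 0.26 (exact permutation p = 0.8) and those of Thbs1 and Thbs3 by 0.09 ± 0.24 (exact permutation p = 1). The 4 pairs with Comp gave exact permutation p-values between 0.2 and 0.5.

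Over the 9 arrays, which share the differences between stages, Thbs2 and Thbs4 correlated at r = 0.984, Thbs2 and Thbs3 at 0.969 and Thbs1 and Thbs2 at 0.953 (log2 signals, a description). Comp correlated with the other 4 at r between 0.784 and 0.888. The 5 genes most like Thbs2 were Col1a1, a chain of type I collagen (r = 0.998), the secreted protease gene Htra1 (0.998), Colec12, Cd34 and Anxa1. Those most like Thbs4 were Abca9 (0.994), the growth factor gene Vegfd (0.994), Prss12, Adcy7 and Shisal1. Thbs3 was followed most closely by Tgfb3, a TGF-beta ligand (0.993), Nrbp2, Emp3, Gpr153 and Cavin3, and Thbs1 by Adgrb2, an adhesion receptor with type 1 repeats (0.996), Mmp11, Rdh10, Colgalt2 and Adcy2. Prelp, a leucine-rich proteoglycan of cartilage and other matrix (0.982), Ube2z, Rnf19a, Itga10 and Col11a1 were most like Comp. High correlations are common here, since 9.43% of all genes exceeded r = 0.9 with Thbs2, 7.61% with Thbs4, 8.74% with Thbs3, 8.23% with Thbs1 and 1.62% with Comp. The genes named were picked as the highest, and the share of genes that reach their r was not counted.

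Receptors and other cell surface partners of thrombospondins were mixed. Of 20 listed genes 18 were tested, of which 7 rose and 2 fell at E14.5 relative to E11.5 (all genes: 22.9% higher, 17.7% lower), with a median of log2 0.40 beside 0.00345 for all genes. Vldlr, a lipoprotein receptor that binds thrombospondins, had signals of 358, 399.7 and 542 at E14.5 against 89.9, 86.0 and 107 at E11.5 (log2 2.19 ± 0.21, adjusted p = 5.73e-05). Cd47, a receptor of the thrombospondin 1 carboxyl end, had 2970, 1839 and 1707 at E14.5 against 724, 704 and 669 at E11.5 (1.59 ± 0.20, adjusted p = 0.000249). The heparan sulfate proteoglycan Sdc4 rose by 1.85 ± 0.34 (adjusted p = 0.00215). Cacna2d1, a calcium channel subunit that thrombospondins bind, rose by 1.13 ± 0.24 (adjusted p = 0.00478), but by 0.70 with all its probe sets averaged (adjusted p = 0.0621). Notch3, a Notch receptor, fell by 0.81 ± 0.12 (adjusted p = 0.000836). The fall of 0.52 ± 0.18 in the lipoprotein receptor gene Lrp8 (adjusted p = 0.0448) was lost without any 1 of the E11.5 arrays, E12.5 A, E14.5 B or E14.5 C, with adjusted p-values up to 0.144. That call was also lost with no filter, median centring, averaged probe sets, a trended and robust prior, and without the letter A arrays. Adjusted p-values there were 0.0636 to 0.127. Cd36, the best known receptor of the type 1 repeats, did not pass the filter, with signals of 46.5 to 70.9 at E14.5 against 1.81 to 24.2 at E11.5.

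Of the matrix proteins that thrombospondins and COMP bind, all 19 listed genes were tested. At E14.5 relative to E11.5, 13 rose and none fell (all genes: 22.9% higher, 17.7% lower), with a median of 2.08. With no filter 8 rose, and leaving out 1 array at a time left 9 to 13. Without E14.5 A, the array with the highest cartilage signals, 9 rose and 1 fell, with a median of 1.07. Decorin (Dcn), a small proteoglycan on collagen fibrils, averaged 18197 ± 3893 at E14.5 against 498 ± 141 at E11.5 (log2 5.21 ± 0.25, adjusted p = 1.30e-06). The fibril-associated collagen gene Col14a1 rose by 5.16 ± 0.26 (adjusted p = 1.68e-06), the matrilin gene Matn2 by 4.23 ± 0.22 (adjusted p = 1.80e-06) and elastin (Eln) by 3.52 ± 0.27 (adjusted p = 1.59e-05). Matn2 exceeded the filter in no E11.5 array, so it too was tested through its later signals. The type II and type IX collagen genes Col2a1 (0.45, adjusted p = 0.542) and Col9a1 (-0.25, adjusted p = 0.763) did not pass.

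Of 13 listed genes of latent TGF-beta and its receptors 10 were tested. Of those, 9 were called, 8 higher and 1 lower at E14.5 than at E11.5. The median of the tested genes was 1.55, and of all genes 22.9% were called higher and 17.7% lower. The ligand gene Tgfb1, with signals of 4.52 to 81.6 over the 9 arrays, and Itgb6 did not pass the filter. Lrrc32 had no probe set with 1 symbol. Ltbp3 and Ltbp2, which encode binding proteins of the latent complex, rose by log2 3.0 ± 0.17 (adjusted p = 3.12e-06) and 3.81 ± 0.48 (adjusted p = 0.000295). Ltbp2 had signals of 873, 268 and 313 at E14.5 against 10.3, 17.3 and 52.2 at E11.5. No E11.5 array exceeded the filter, so it was tested through its E14.5 signals, and its change was 2.21 with the floor at the median signal. The receptor gene Tgfbr2 averaged 5763 ± 269 at E14.5 against 839 ± 67.5 at E11.5 (2.78 ± 0.14, adjusted p = 1.68e-06), and the coreceptor gene Tgfbr3 rose by 1.81 ± 0.15 (adjusted p = 2.09e-05). With all probe sets averaged those changes were 1.30 and 0.872. Tgfbr1, the signalling partner of Tgfbr2, fell by 0.77 ± 0.13 (adjusted p = 0.00125).

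Proteases that act on thrombospondins, COMP or nearby matrix, and their inhibitors, gave 12 genes that rose and none that fell among 13 tested of 16. Their median was 1.62, where 22.9% of all genes were called higher and 17.7% lower. The count of rises was 8 without the letter A arrays and 9 without E11.5 A or E11.5 C. Htra1, a secreted serine protease, had signals of 6201, 3393 and 4207 at E14.5 against 70.2, 113 and 132 at E11.5 (log2 5.46 ± 0.34, adjusted p = 4.96e-06). Adamts12, which encodes an enzyme that can cleave COMP, rose by 2.88 ± 0.20 (adjusted p = 9.21e-06), or by 1.49 with its probe sets averaged. The aggrecan-cleaving protease gene Adamts5 rose by 2.60 ± 0.14 (adjusted p = 1.91e-06). Mmp9, a gelatinase gene, rose by 2.04 ± 0.51 (adjusted p = 0.0110), but by 1.75 without the letter A arrays (adjusted p = 0.0847) and by 1.13 with the floor at the median signal.

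Other genes that encode type 1 repeats or modify them, which Thbs3, Thbs4 and Comp do not carry, gave 13 that rose and none that fell among 16 tested of 22. Their median was 2.03, and among all genes 22.9% were called higher and 17.7% lower. In 4 of the 13, Spon2, Cilp, Adgrb3 and Adamtsl4, no E11.5 array exceeded the filter, so they were tested through their later signals and their folds are imprecise. Cilp, a matrix protein of cartilage and tendon, averaged 474 ± 141 at E14.5 against 32.3 ± 11.6 at E11.5 (log2 3.89 ± 0.32, adjusted p = 2.06e-05), and 2.34 was its change with the floor at the median signal. Spon2 rose by 3.58 ± 0.36 (adjusted p = 7.99e-05), or 2.28 with probe sets averaged, Adamtsl1 by 2.93 ± 0.18 (adjusted p = 4.56e-06) and Thsd7a by 2.49 ± 0.42 (adjusted p = 0.00142). Pofut2, which adds fucose to these repeats, had a change of 1.43 (adjusted p = 0.00238), and B3glct, which extends that sugar, one of -0.02 (adjusted p = 0.927); both were picked from this list after their values were seen.

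Genes of folding in the endoplasmic reticulum, where mutant COMP is retained, gave 3 that rose and none that fell among 14 tested, or 21.4%, near the 22.9% called higher among all genes, with a median of 0.25. The collagen chaperone gene Serpinh1 rose by 0.83 ± 0.12 (adjusted p = 0.000597), P4hb, a protein disulfide isomerase and prolyl hydroxylase subunit, by 0.69 ± 0.11 (adjusted p = 0.00103), and the regulator gene Xbp1 by 0.67 ± 0.15 (adjusted p = 0.00662). After centring each array on its median none of the 14 was called (0.63, 0.49 and 0.47 for these 3, adjusted p = 0.156, 0.296 and 0.332), and the median of all genes shifted to -0.195.

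**Figure D5:**
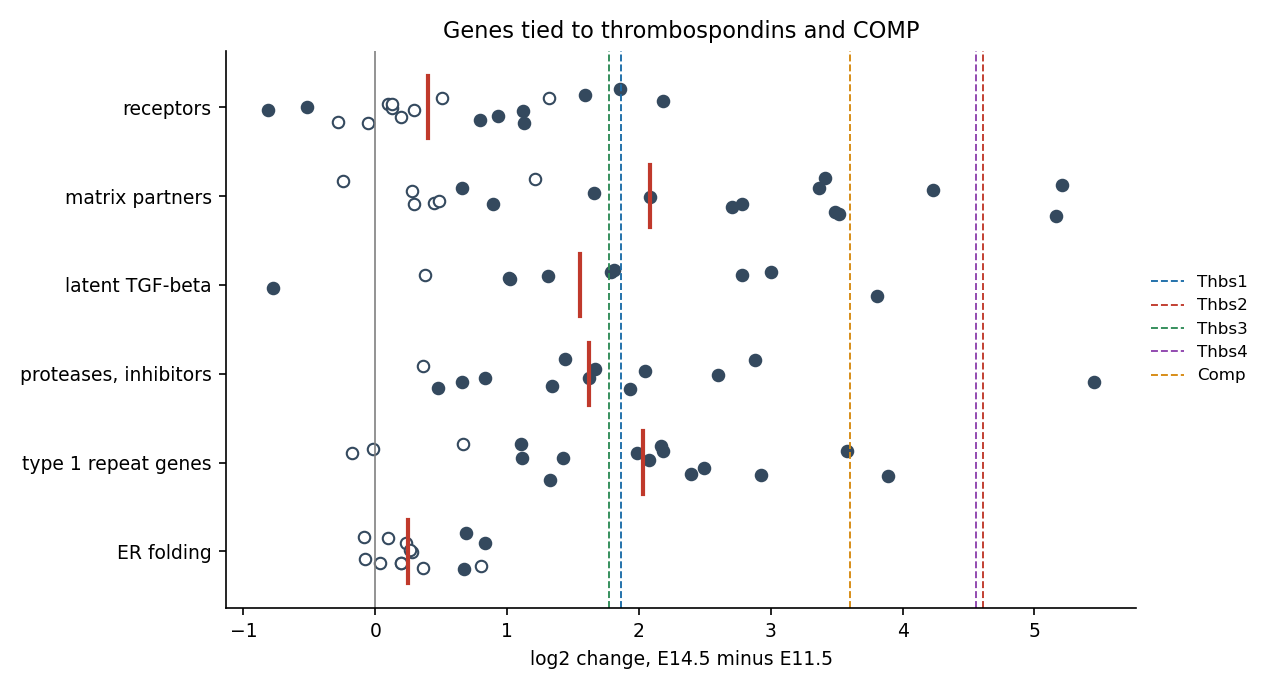
log2 change between E14.5 and E11.5 of the tested genes of each list, filled where called, with the list median as a short bar and the 5 members as dashed lines. The medians lie at 2.08 for matrix partners, 2.03 for type 1 repeat genes, 1.62 for proteases and inhibitors, 1.55 for latent TGF-beta, 0.40 for receptors and 0.25 for folding genes.

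The genes next to the members in the RefSeq table give the change of neighbouring loci. Thbs3 lies next to Mtx1, a gene of mitochondrial protein import that starts on the opposite strand and faces away. Mtx1 had signals of 2860, 2827 and 2495 at E14.5 against 3238, 2824 and 2828 at E11.5 (log2 -0.12 ± 0.13, adjusted p = 0.489), and its change lay 1.89 ± 0.17 below that of Thbs3. Beside Thbs4, Mtx3 changed by 0.13 ± 0.26 (adjusted p = 0.733), and Serinc5 by 0.57 ± 0.16 (adjusted p = 0.0210), a call lost on leaving out array A or B of either E11.5 or E14.5. The Serinc5 call was also lost with median centring (0.371, adjusted p = 0.449), quantile normalization (0.445, adjusted p = 0.0727) and without the letter A arrays (0.434, adjusted p = 0.0926). Next to Comp, Upf1 changed by -0.28 (adjusted p = 0.230) and Crtc1 by 0.35 (adjusted p = 0.0927), or by 0.47 without E14.5 B (adjusted p = 0.0448).

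Smoc2, which encodes a calcium-binding matrix protein and lies beside Thbs2, was higher too. Its signals were 5543, 4897 and 5670 at E14.5 against 938, 1052 and 1085 at E11.5 (log2 2.39 ± 0.14, adjusted p = 2.96e-06), and it was also called at E12.5 against E11.5 (1.07, adjusted p = 0.00501). The Thbs2 change exceeded that of Smoc2 by 2.22 ± 0.13, with ratios that did not overlap between the stages. For this pair and for the other 5 pairs of a member and a tested neighbour, the exact two-sided permutation test gave p = 0.1, the smallest it can give with 3 arrays a stage. Rasgrp1 and Fsip1 beside Thbs1, Wdr27 beside Thbs2 and Muc1 beside Thbs3 did not pass the filter.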

How the data were processed

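RNA of sorted Scx-GFP-positive forelimb cells was measured on 9 arrays, 3 for each of 3 stages. The deposited values are 1 intensity per probe set, the signal that, per the submitters' processing notes, the authors obtained from Affymetrix Expression Console 1.1 by MAS5; further steps are not given in the sources used here. Each array's mean without the lowest and highest 2% was 500, and no further scaling was applied. MAS5 scales each array by 1 factor, so a change is relative to the array's mean. The number of arrays limits the precision.

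Genes were named through the platform annotation: 34945 probe sets had 1 symbol, 932 several and 64 were controls. Each gene was represented by the probe set whose mean log2 signal over all arrays was highest, with those of suffix _x_at used only where a gene had no other. Signals under 22.7 (the 25th percentile) were raised to it, log2 transformed, and tested if above 90.6 (the median) in at least 3 arrays. limma 3.58.1 (R 4.3.3) fitted 1 mean per stage with 6 residual degrees of freedom, two-sided, with Benjamini-Hochberg adjustment. Means and SDs are of signals before the floor. Pairs of genes were compared with exact permutation tests in SciPy 1.17.1. The fit was tested on simulated data.

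The members and lists were chosen with earlier results of these data known. Of 164 listed genes 162 had a probe set with 1 symbol. Named genes were the members, the 5 genes most like each, up to 4 called genes of each list with the largest change between E14.5 and E11.5, and up to 2 called the other way; neighbours, marker genes and genes said to be picked later fall outside this rule. Lists are described by counts and medians, with no test.

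Letters were checked as pairs: after stage means were removed, arrays of the same letter correlated at 0.313, -0.00516 and 0.238 (A, B, C) between E14.5 and E11.5, at 0.520, 0.133 and 0.332 between E12.5 and E11.5, and at 0.310, 0.121 and 0.289 between E14.5 and E12.5. Arrays of different letters were not compared in this way, so whether the letters pair the arrays cannot be told from these correlations. Median signals rose in the order A, B, C at every stage. What a letter stands for is not in the labels. The other settings were another floor, no floor, no filter, median centring, quantile normalization, averaged probe sets, a trended and robust prior, array weights, a replicate block, each pair of stages alone, and leaving out each array; leaving out the letter A arrays was chosen after seeing the data.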

Additional observations from a re-analysis of the deposited data

How the results depend on the processing

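The changes of Thbs1, Thbs2, Thbs3 and Thbs4 between E14.5 and E11.5 kept their direction and call under all 20 alternatives each (1.564 to 2.005, 4.344 to 5.06, 1.574 to 1.903 and 4.313 to 4.823), as did Thbs2, Thbs3 and Thbs4 between E14.5 and E12.5. Fitting the letters as a replicate block changed no member's call in any comparison and moved no count of called genes by over 1.5 times. Leaving out each array gave 2.273 to 4.489 for Comp between E14.5 and E11.5 and 0.9477 to 3.163 between E14.5 and E12.5. For E12.5 against E11.5 it gave 0.9083 to 1.257 for Thbs2 and 1.06 to 1.611 for Comp. For the second minus the first interval it gave -0.0836 (without E12.5 A) to 0.5529 for Thbs1, 2.099 to 2.785 for Thbs2, 2.549 to 3.694 for Thbs4 and -0.3779 (without E14.5 A) to 1.837 for Comp. Those intervals of Thbs1 and Comp turned sign without ever being called.

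Dropping the filter adds genes to the adjustment and also changes the common value toward which each gene's variance is drawn. Without the filter, Comp between E14.5 and E11.5 (3.605, adjusted p = 0.0509) and Thbs2 between E12.5 and E11.5 (1.068, 0.106) were uncalled. So were the interval differences of Thbs2 (2.478, 0.0875) and Thbs4 (3.024, 0.149). Both interval differences were also uncalled with no floor (2.478, 0.0527; 3.024, 0.0708), with averaged probe sets (2.789, 0.0532; 3.024, 0.0532) and without the letter A arrays (2.149, 0.0736; 2.764, 0.172), where Thbs1 had -0.1657 and Comp -0.9738. Thbs2 between E12.5 and E11.5 was uncalled with median centring (0.9823), averaged probe sets (1.136) and the 6 arrays of those stages alone (1.068). Thbs1 was called there with a trended and robust prior (0.8052) and with array weights (0.8371). Between E14.5 and E12.5 Thbs1 was uncalled with median centring (0.9449) or when the letter A arrays were left out (0.6989), and Comp was called with median centring (2.166). The cause of these changes was not tested.

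Between E14.5 and E11.5 4691 genes were called, against 2341 with median centring. Between E12.5 and E11.5 there were 411, against 182 with no filter, 177 with median centring, 249 without the letter A arrays and 125 to 486 without 1 array. Between E14.5 and E12.5 there were 2542 (1463 higher, 1079 lower), against 912 with median centring (631 higher, 281 lower), 1084 without the letter A arrays and 1564 to 2599 without 1 array. For the interval difference there were 89, against 220 with the floor at the median signal, 55 with no filter, 28 without the letter A arrays and 30 to 73 without 1 array. The E11.5 signals of Thbs4, Comp and the Thbs2 probe sets 1422571_at and 1447862_x_at lay near or under the filter, so the sizes of their folds are imprecise.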
